A study of Gallus gallus with 6 samples.

Results

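Genes that mark macrophages and dendritic cells, 9 in number, were followed in messenger RNA from chicken abdominal fat. They were chosen by symbol: the receptors GPR34, FLT3 and CSF1R, the secreted protein LY86, the transcription factors SPI1 and IRF8, and the complement chains C1QA, C1QB and C1QC. All 9 members were found among the 15491 genes of the deposited table, and all 9 passed the filter on low counts, as did 14743 genes in all. The animals were male broilers of the Ross strain, a fast-growing meat-type chicken, kept in single wire cages from day 14 on 1 diet under 24 h of light a day. Between day 21 and day 35 of age 1 group remained in thermoneutral air (22 ± 0.5 °C) while the other was moved to heat stress (32 ± 0.5 °C), both at 50% humidity. Each group is represented by 3 libraries, and the labels mention 12 chickens. The labels do not say that a library is 1 chicken, so the p-values below measure the spread between these libraries, which may be technical in part.

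Macrophages and dendritic cells are phagocytes that clear dead cells, sense microbes and show antigen to lymphocytes. Macrophages need signals through CSF1R, the receptor for the growth factors CSF1 and IL34, whereas dendritic cells need signals through FLT3, and both lineages depend on the transcription factors SPI1 (also called PU.1) and IRF8. In fat, macrophages lie between the adipocytes and around dying ones, and they are the main makers of C1q, the complement molecule that opens the classical pathway. Several of these genes are not private to phagocytes, since B cells also express SPI1, IRF8 and LY86.

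Total counts ran from 30673333 to 35836632 per library in the thermoneutral group and from 38336086 to 45163458 under heat stress, which was thus sequenced more deeply throughout. Values in CPM are reads per 1e+06 of the scaled total, and comparisons between genes use the authors' TPM, which also corrects for gene length. The 10 adipocyte markers measured, such as PLIN1, a coat protein of lipid droplets, summed to between 45190 and 50720 TPM in thermoneutral fat and between 40170 and 50760 TPM in heat-stressed fat. Most of this sum was FABP4 (24300 to 32200 TPM), and single markers went both ways. PLIN1, LPL, CEBPA and PPARG were higher in every heat-stressed library than in any thermoneutral one, as were 12.6% of all genes in CPM. The gap was narrow for PPARG (254 CPM in thermoneutral 1, 255 CPM in heat stress 2). It was also narrow for PLIN1 (5270 CPM in thermoneutral 1, 5360 CPM in heat stress 1). RBP7 and PNPLA2 were lower in every heat-stressed library, as were 12.4% of all genes, and the other markers overlapped. Heat stress 1 stood apart from the other heat-stressed libraries for 4 of the 9 members, and the results on members that rest on it are given with and without it.

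All 9 members had negative log2 fold changes, which means lower levels at 32 °C, as did 50.6% of all genes tested. One of them, GPR34, passed the test over all genes (edgeR's quasi-likelihood test, false discovery rate (FDR) under 0.05), in which 0.061% of all genes were called lower. The members' median log2 fold change was -0.58, against -0.005 over all genes tested. At an unadjusted p under 0.05 there were 5 lower members (GPR34, IRF8, FLT3, LY86 and CSF1R) and 0 higher ones, beside 9.2% of all genes lower. DESeq2, a second count test, called the same 5 at an adjusted p under 0.05, where it called 4.09% of all genes lower. On simulated data DESeq2 made more false calls than this threshold allows, so its calls here and below need caution. The simulated counts were drawn from edgeR's own estimates of spread, so they cannot rank the tests on the real libraries. In 4 members (GPR34, FLT3, CSF1R and IRF8) every heat-stressed library was below every thermoneutral one, beside 12.4% of all genes, and 0 members were apart in the other direction, beside 12.6% of all genes. The members were chosen with earlier results of these data known, so these counts describe them and are no independent evidence. Without heat stress 1, an omission chosen for these counts after seeing the data, the members' median was -0.88 and 0 members passed the FDR. All 9 members were then lower at an unadjusted p under 0.05, beside 9.28% of all genes, and all 9 were apart, beside 19.5% of all genes. Heat stress 1 was the highest heat-stressed library for SPI1 and the C1q chains, so leaving it out favours these counts of members. The omission was not chosen on all genes, so their shares are not a like baseline.

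**Figure D1:**
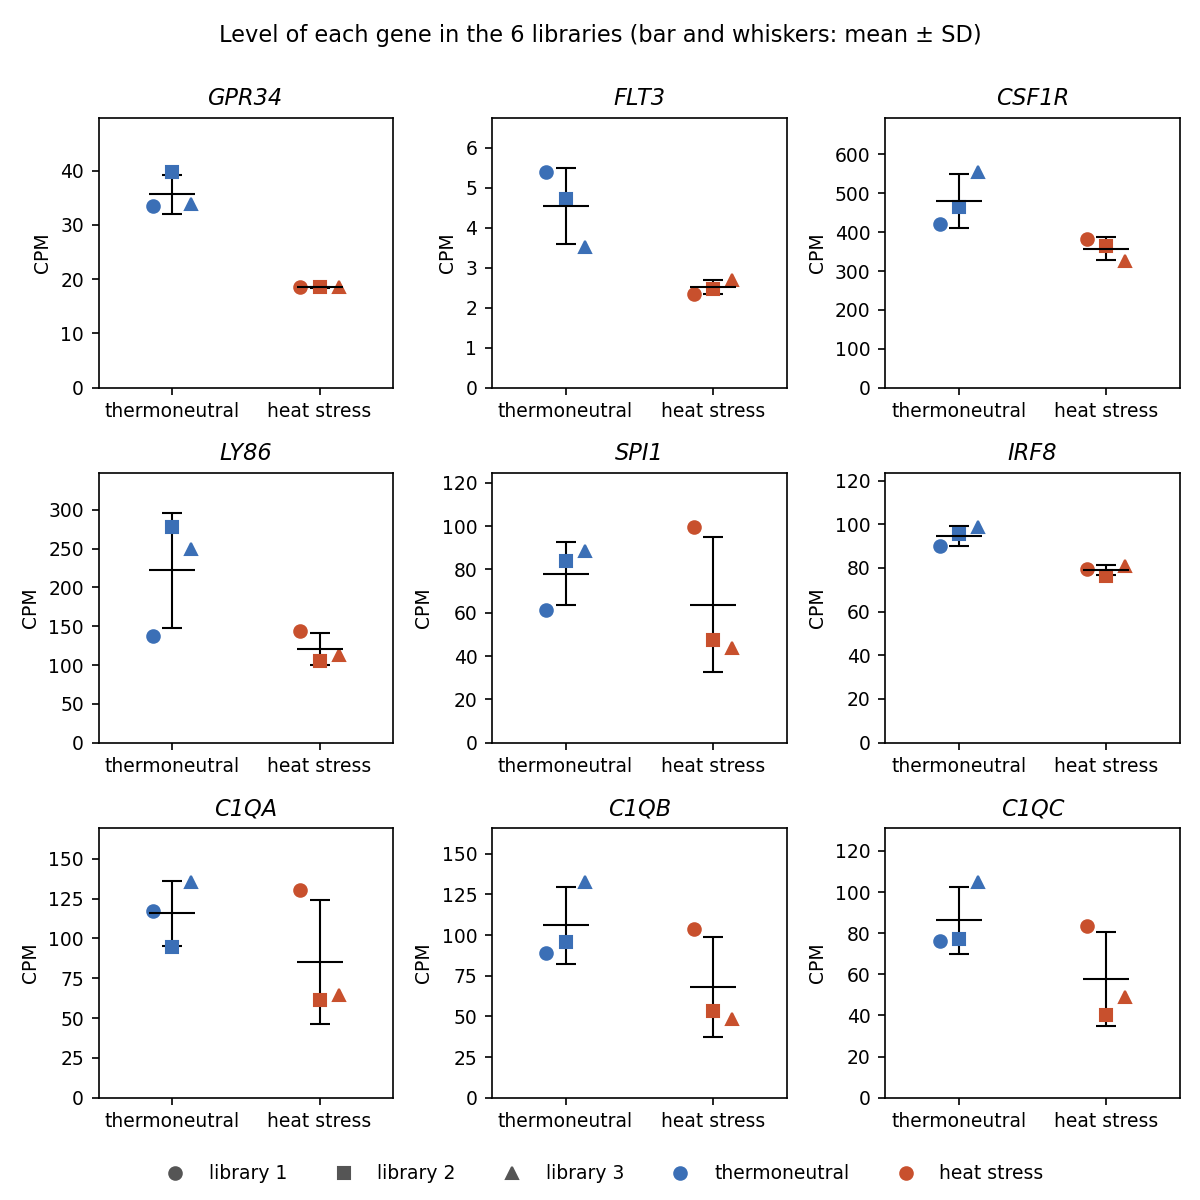
Level of each gene in CPM (y axis, from 0) in the thermoneutral (blue) and heat stress (red) libraries, with the mean and SD of 3 libraries in black. GPR34, FLT3, CSF1R and IRF8 are separated between the groups, whereas heat stress 1 (red circle) lies at or above the thermoneutral mean for SPI1 and C1QA.

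The members spanned a wide range of levels. By median TPM over the 6 libraries LY86 stood highest (246.5, range 196.5 to 479.2), followed by CSF1R (186.6, 155.7 to 254.8), C1QB (178.6, 98.5 to 260.3), C1QA (170.7, 108.7 to 224.9) and C1QC (133.2, 77.0 to 184.7). IRF8 (79.3 TPM, 76.4 to 91.1) and SPI1 (63.9 TPM, 39.9 to 92.5) came next. GPR34 (15.3 TPM, 11.1 to 22.9) and FLT3 (1.29 TPM, 1.02 to 2.15) were the scarcest. Neighbours in this order overlapped in range over the libraries from LY86 down to SPI1. Within every library, however, LY86 was above CSF1R and the C1q chains, C1QA and C1QB were above C1QC, and C1QC was above IRF8. The order among CSF1R, C1QA and C1QB, and that of IRF8 and SPI1, changed between libraries and is not firm. SPI1, GPR34 and FLT3 were separated from each other, with no overlap of ranges.

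GPR34 (gene ID 771199), a receptor for the lipid lysophosphatidylserine on macrophages and microglia, was the member past the threshold. It measured 33.4, 39.8 and 33.8 CPM in thermoneutral 1, 2 and 3 and 18.45, 18.45 and 18.5 CPM in heat stress 1, 2 and 3. The 3 heat-stressed libraries were close to each other and all lay far below the lowest thermoneutral one. GPR34 fell 1.93-fold, from 35.6 ± 3.61 to 18.5 ± 0.0331 CPM (SD, n = 3 each; log2 fold change -0.95 ± 0.10 SE, 95% interval -1.20 to -0.70; edgeR FDR = 0.0415). The heat-stressed libraries held 802, 849 and 706 reads of this gene, for which counting error alone gives an SD of 0.633 to 0.697 CPM. Their spread was smaller than that and so understates the error, whereas edgeR's test draws on a spread shared across genes. Leaving out any 1 of the 6 libraries took GPR34 over the threshold, to FDR = 0.0501 without thermoneutral 1, 0.0853 without thermoneutral 2, 0.126 without thermoneutral 3, and 0.0579, 0.0677 and 0.147 without heat stress 1, 2 and 3, while the log2 fold change stayed between -0.99 and -0.87.

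In the reference gene table, which is of another build (GRCg7b), GPR34 lies within the span of CASK, a scaffold kinase gene, on chromosome 1. The sources used here do not state whether counting used strand, so reads shared by the pair cannot be assigned with certainty. CASK averaged 122 ± 1.72 CPM in thermoneutral and 112 ± 8.40 CPM in heat-stressed fat, a log2 fold change of -0.12 (FDR = 0.477). GPR34L, a gene named as GPR34-like, averaged 0.299 and 0.212 CPM.

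FLT3 (gene ID 100858422), the receptor that dendritic cells need to develop, was rare in fat. It measured 5.40, 4.71 and 3.53 CPM in the thermoneutral libraries and 2.35, 2.48 and 2.70 CPM in the heat-stressed ones, from 102 to 162 reads per library. The groups did not overlap, and the heat stress libraries were again the tighter group. The log2 fold change was -0.86 ± 0.24 SE (95% interval -1.43 to -0.28), which did not pass over all genes in edgeR (FDR = 0.133) and passed in DESeq2 (adjusted p = 0.0169).

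CSF1R (gene ID 396406), the growth factor receptor that defines macrophages in birds and mammals, was the most counted member. It measured 421, 464 and 556 CPM in the thermoneutral libraries and 383, 364 and 325 CPM in the heat-stressed ones. The groups were apart, but the gap between thermoneutral 1 and heat stress 1 was small beside the range within the thermoneutral group. The mean went from 480 ± 69.0 to 357 ± 29.5 CPM (log2 fold change -0.43 ± 0.13 SE, edgeR FDR = 0.158, DESeq2 adjusted p = 0.0292). PDGFRB, a receptor of pericytes and fibroblasts whose gene neighbours CSF1R in the reference table, had a log2 fold change of the opposite sign (0.32 ± 0.09, edgeR FDR = 0.143).

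LY86 (gene ID 420872), a secreted partner of the receptor CD180 on B cells and myeloid cells, varied most among thermoneutral libraries. It measured 137.6, 278.3 and 249.2 CPM there and 144.1, 105.2 and 113.3 CPM in heat stress. Thermoneutral 1 was as low as heat stress 1, so the groups overlapped, while thermoneutral 2 and 3 stood well above the rest. The log2 fold change of -0.88 ± 0.26 SE did not pass in edgeR (FDR = 0.15) and passed in DESeq2 (adjusted p = 0.0158), and it was -1.13 without thermoneutral 1 and -0.69 without thermoneutral 2. F13A1, the coagulation factor XIII A chain, whose gene lies beside LY86 in the reference table, measured 106, 208 and 270 CPM in thermoneutral and 75.6, 109 and 66.4 CPM in heat-stressed fat (log2 fold change -1.22 ± 0.34, edgeR FDR = 0.131). It too was lowest among thermoneutral libraries in thermoneutral 1.

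**Figure D2:**
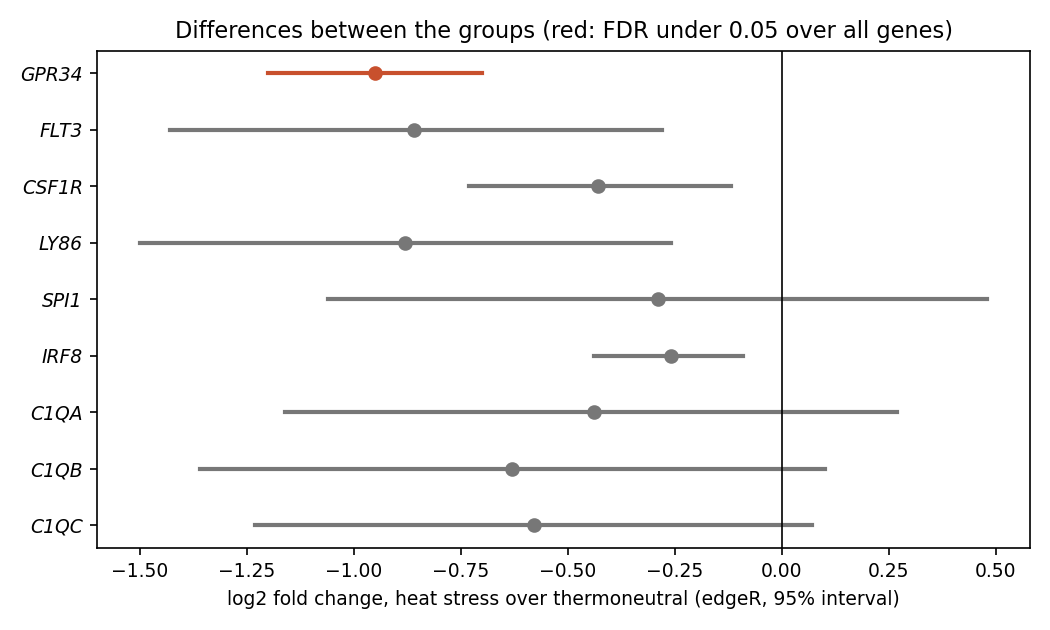
Log2 fold change of heat stress over thermoneutral fat for each gene (x axis) with its 95% interval from edgeR. GPR34, in red, is the member past the FDR of 0.05, the intervals of FLT3, CSF1R, LY86 and IRF8 lie below 0, and those of SPI1 and the C1q chains span 0.

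The transcription factors had different shapes. IRF8 (gene ID 396385), which directs dendritic cell and monocyte fate, had the least spread of the 9 genes within the thermoneutral group relative to its mean. Its thermoneutral values were 89.8, 95.6 and 99.0 CPM, and its heat stress values were 79.5, 76.5 and 81.0 CPM. Every heat-stressed library was below every thermoneutral one, by a small margin. The log2 fold change was -0.26 ± 0.07 SE (95% interval -0.44 to -0.09; edgeR FDR = 0.127, DESeq2 adjusted p = 0.0261), or 16.7% lower.

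SPI1 (gene ID 395879), the master regulator of the myeloid lineage, measured 61.4, 83.7 and 88.7 CPM at 22 °C and 99.8, 47.4 and 43.9 CPM at 32 °C. Heat stress 1 was the highest of all 6 libraries and heat stress 2 and 3 were the lowest, so the heat-stressed group enclosed the thermoneutral one. The log2 fold change was -0.29 ± 0.32 SE (95% interval -1.06 to 0.48; edgeR FDR = 0.682), and -0.77 without heat stress 1 (FDR = 0.1). It was -0.12 without heat stress 2, -0.08 without heat stress 3 and -0.19 without thermoneutral 3, so single libraries set its size in both directions. SPI1 overlaps the zinc transporter gene SLC39A13 in the reference table, so its reads carry the same limit as those of GPR34. SLC39A13 averaged 192 ± 18.5 and 258 ± 16.9 CPM, with a log2 fold change of 0.42 ± 0.10 (edgeR FDR = 0.0987).

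The C1q chains form 1 molecule from equal numbers of A, B and C chains, and their genes lie side by side on chromosome 21 in the reference table, in the order C1QB, C1QC, C1QA. C1QA (gene ID 419504) measured 117.1, 94.8 and 135.7 CPM at 22 °C and 130.2, 61.3 and 64.2 CPM at 32 °C. C1QB (gene ID 428197) measured 89.2, 95.7 and 132.9 CPM and 103.7, 53.0 and 48.2 CPM. C1QC (gene ID 419503) measured 76.4, 77.3 and 105.1 CPM and 83.6, 40.4 and 48.8 CPM. All 3 chains showed the same picture: heat stress 1 lay within the thermoneutral range and heat stress 2 and 3 lay below it. None of the 3 passed in edgeR or DESeq2, with log2 fold changes of -0.44 ± 0.30 SE, -0.63 ± 0.31 and -0.58 ± 0.28 (edgeR FDR = 0.486, 0.328 and 0.314). Without heat stress 1 these were -0.88, -1.07 and -0.95 (edgeR FDR = 0.0779, 0.0771 and 0.0824), and still did not pass. Other omissions brought the chains nearer to 0, to -0.25 without heat stress 2 and -0.27 without heat stress 3 for C1QA, and to -0.38 without heat stress 2 for C1QC. The smallest size for C1QB was -0.43, without heat stress 3.

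Summed over the chains, C1q stood at 487.5, 477.7 and 667 TPM in thermoneutral fat and at 594.2, 298.3 and 297.8 TPM in heat-stressed fat. The sums of heat stress 2 and 3 were nearly equal, and heat stress 1 was about as high as the thermoneutral libraries (exact permutation test, two-sided, p = 0.3, where 3 against 3 libraries cannot go below 0.1). Without heat stress 1 the sums did not overlap (exact permutation test, two-sided, p = 0.2, the smallest that 3 against 2 libraries allow). The proportions of the chains varied little: C1QA made up 32.4% to 38.3% of the sum, C1QB 33.1% to 39.2% and C1QC 25.8% to 30.1%.

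**Figure D3:**
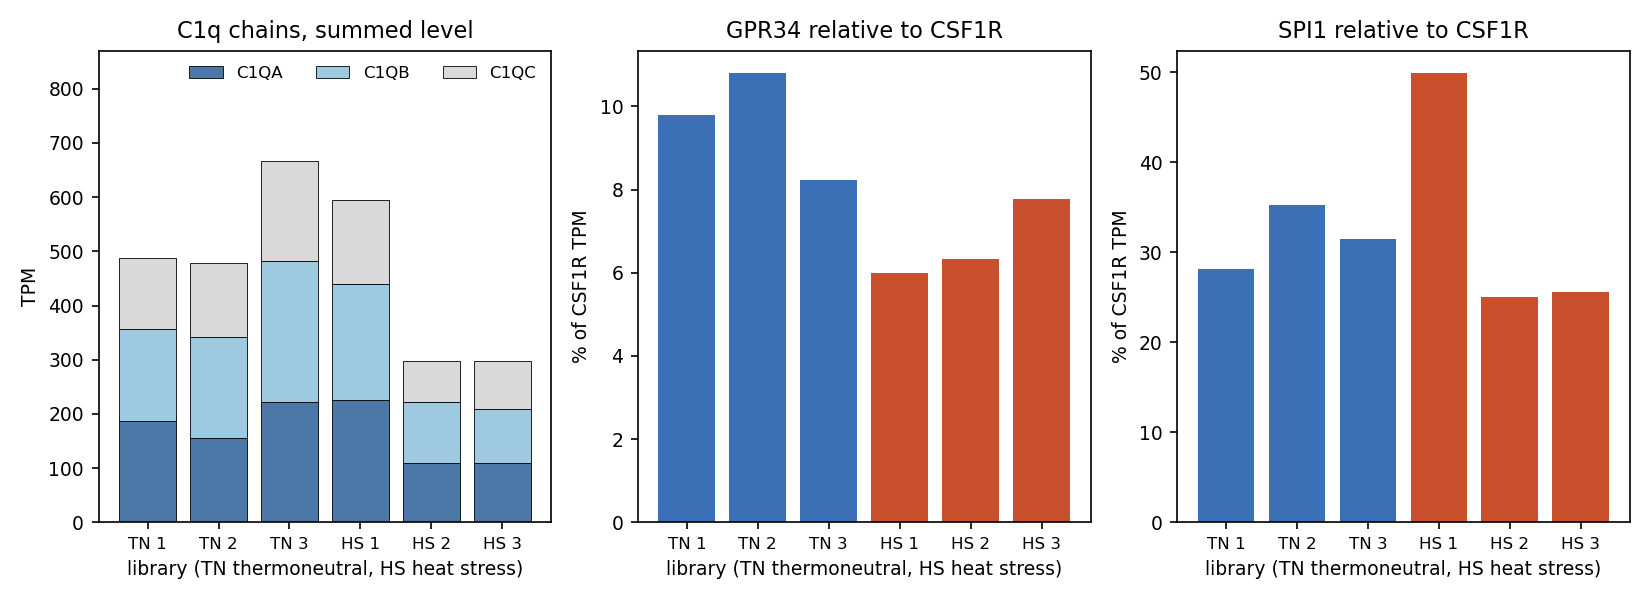
Left, TPM of the C1q chains stacked by library; middle and right, TPM of GPR34 and SPI1 as a percentage of CSF1R TPM in the same library. C1q is high in all thermoneutral libraries and heat stress 1, GPR34 is a smaller share of CSF1R in every heat-stressed library, and SPI1 is 49.9% of CSF1R in heat stress 1 against 25% and 25.6% in heat stress 2 and 3.

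In bulk tissue fewer cells of a type and less RNA per cell cannot be told apart. The members were also set against CSF1R within each library. This scale does not separate them either, because CSF1R was itself a lower member and the cells behind each gene's RNA are not known. GPR34 was 9.80%, 10.8% and 8.22% of CSF1R TPM in thermoneutral fat and 5.99%, 6.33% and 7.78% in heat-stressed fat. The groups did not overlap, although thermoneutral 3 and heat stress 3 came close (exact permutation test, two-sided, p = 0.1, the smallest that 3 against 3 libraries allow). None of the other members was apart between the groups on this scale when all 6 libraries were used. Without heat stress 1, an omission chosen after seeing the data, 5 of 8 members were apart and lower relative to CSF1R. These were GPR34, SPI1, C1QA, C1QB and C1QC, each at the smallest exact permutation p of 0.2. Heat stress 1 was the highest library for SPI1 and the C1q chains on this scale, so leaving it out favours their separation. The share of all genes apart on this scale was not computed, and in CPM it was 19.5% without heat stress 1. With that library left out, SPI1 was 28.1% to 35.3% of CSF1R in thermoneutral and 25% to 25.6% in heat-stressed fat. IRF8 was 40.0% ± 3.82 of CSF1R in thermoneutral and 44.6% ± 4.65 in heat-stressed fat (SD, n = 3 each). FLT3 was 0.874% ± 0.294 and 0.631% ± 0.0967. Relative to PTPRC, the surface phosphatase of all leukocytes, GPR34 was again apart (35.3% to 38.2% in thermoneutral, 22.1% to 32.9% in heat-stressed fat), and CSF1R was not (354% to 439% and 368% to 438%). Without heat stress 1, GPR34 and C1QB were apart and lower relative to PTPRC. IRF8 was then apart and higher (146% to 157% in thermoneutral, 185% to 212% in heat-stressed fat). Each of these had the smallest exact permutation p of 0.2. FLT3, LY86, CSF1R, SPI1, C1QA and C1QC overlapped on that scale. With all 6 libraries C1QB and IRF8 overlapped too (exact permutation test, two-sided, p = 0.5 and 0.3). The share of all genes apart relative to PTPRC was not computed.

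Library by library the members formed sets with different shapes. The C1q chains and SPI1 averaged 0.13 in heat stress 1 and -0.91 and -0.89 in heat stress 2 and 3, on a scale of log2 CPM relative to the thermoneutral mean. The receptors GPR34, FLT3 and CSF1R averaged -0.73, -0.72 and -0.74 in the same libraries. The transcription factors SPI1 and IRF8 together averaged 0.06, -0.50 and -0.52. SPI1 and C1q were joined for their like shape, so the split describes those genes alone. The receptors were level in their mean, while FLT3 stood at -0.92, -0.84 and -0.72 and CSF1R at -0.32, -0.39 and -0.55. LY86 in heat stress 1 (-0.56) lay between the set of C1q and SPI1 and that of the receptors.

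**Figure D4:**
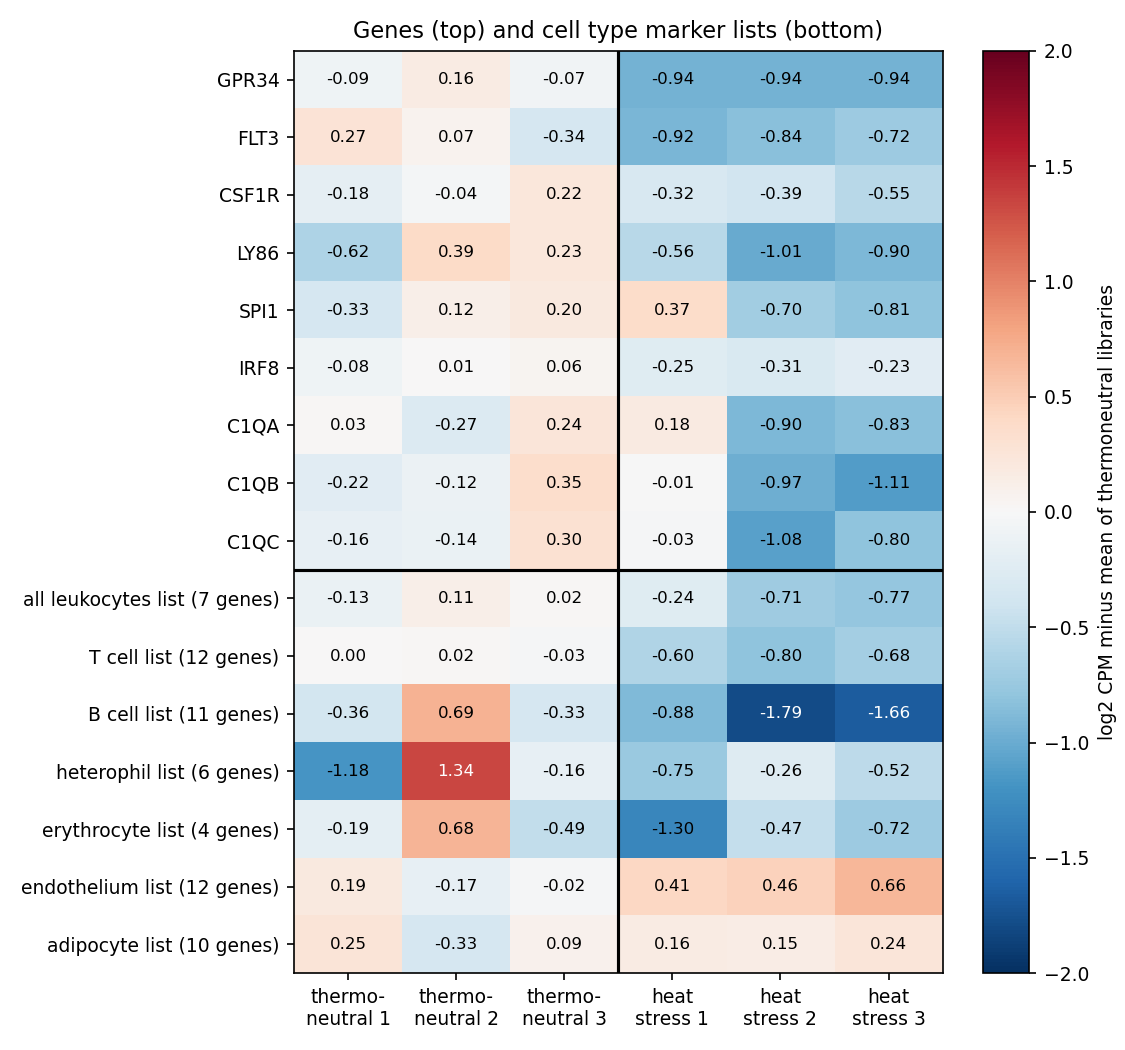
Log2 CPM minus the mean of the thermoneutral libraries (colour and numbers) for each of the 9 genes and, below the line, the mean of each marker list. In heat stress 1 SPI1 and the C1q chains are between -0.03 and 0.37, while T cell markers are at -0.60, near the -0.80 and -0.68 of the other heat-stressed libraries. The all-leukocyte list is also higher in heat stress 1 (-0.24) than in heat stress 2 and 3 (-0.71 and -0.77). Unlike SPI1 and C1q, it lies in heat stress 1 below every thermoneutral library (-0.13, 0.11 and 0.02).

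Markers of other leukocytes were also lower on average, and their part in the result was not tested. All 12 T cell markers measured had negative log2 fold changes (median -0.68), and their summed level ran from 225.2 to 243.2 TPM in thermoneutral and 149.5 to 164.5 TPM in heat-stressed fat. CD3D, a signalling chain of the T cell receptor, fell (log2 fold change -0.76 ± 0.09, edgeR FDR = 0.0476), and CD3E and TRAT1 stood at -0.61 and -0.97. Of 11 B cell markers 9 were negative (median -1.91), with sums of 182.4 to 297.7 and 91.0 to 210.9 TPM. Their leading genes PAX5 (-3.76), CD79B (-2.60) and CXCR5 (-2.21) were highest in thermoneutral 2. PAX5, the transcription factor that defines B cells, averaged 5.03 ± 4.47 CPM at 22 °C and 0.37 ± 0.165 CPM at 32 °C. The 7 markers shared by all leukocytes had a median of -0.53 and sums of 696.1 to 830.3 and 496.2 to 729.3 TPM, led by DOCK2 (-0.67), ARHGDIB (-0.48) and RAC2 (-0.65). Heat stress 1 also stood above heat stress 2 and 3 in the mean of this list (-0.24 against -0.71 and -0.77). The same held for the B cell list (-0.88 against -1.79 and -1.66), and in both lists heat stress 1 was still below every thermoneutral library. Within the B cell list the gap was widest for JCHAIN (81.2 against 7.17 and 8.55 CPM). JCHAIN also made up most of that list's sum in thermoneutral fat, at 98.2 to 182 TPM. In heat stress 1 PAX5, CD79B and BLK were not above both heat stress 2 and 3, while the other B cell markers were. The osteoclast list was split too (-0.02 against -0.53 and -0.59), through ACP5 (29.6 against 8.54 and 10.7 CPM). Its other genes, CTSK (164 against 182 and 136 CPM) and MITF (63.5 against 68.8 and 64.2 CPM), were not above both. The part of these differences in the split of SPI1 and C1q was not tested. PTPRC itself averaged 140 ± 4.11 and 97.2 ± 16.5 CPM (log2 fold change -0.53, edgeR FDR = 0.0946).

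The remaining marker lists are given as sums and leading genes. The 6 heterophil markers, led by S100A9 (-1.37), MPO (-1.90) and CXCR1 (-0.64), summed to 69.4 to 493.6 TPM in thermoneutral and 100.5 to 186.8 TPM in heat-stressed fat. The size for S100A9 and MPO rests on thermoneutral 2, at 80.5 and 23.8 CPM. Thermoneutral 1, at 11.9 and 1.27 CPM, was below every heat-stressed library for both. Thermoneutral 2 also had the highest mean log2 CPM of the heterophil, erythrocyte and thrombocyte lists, at 1.34, 0.68 and 0.33 relative to the thermoneutral mean. The 5 thrombocyte markers, led by F13A1, THBS1 (-0.84) and ITGA2B (-0.47), summed to 187.4 to 278.7 and 107.9 to 178.8 TPM. Most of this sum was F13A1 and THBS1, and which cells these came from was not tested. THBS1 was apart between the groups, while F13A1, ITGA2B, ITGB3 and GP1BB overlapped. The 4 erythrocyte markers, led by SPTB (-1.11), HBA1 (-0.88) and HBBA (-0.94), summed to 1337 to 3049 and 783.8 to 1428 TPM. Of 12 endothelial markers 11 were positive (median 0.55), led by SOX7 (0.96), FLT4 (0.53) and FLT1 (0.84), with sums of 1353 to 1693 and 1842 to 2182 TPM. Of 9 fibroblast markers 8 were negative (median -0.53), led by LUM (-0.71), POSTN (-0.81) and DPT (-0.83), with sums of 20150 to 24490 and 14720 to 18110 TPM. Adipocyte markers had a median of 0.19, led by LPL (1.17), PNPLA2 (-1.22) and CEBPA (1.10). The osteoclast list, meant to cover mast cells as well, held CTSK (-0.61), MITF (-0.15) and ACP5 (-0.17), which summed to 383.2 to 478.8 and 262.4 to 347.9 TPM. Most of that sum was CTSK, at 327 to 425 TPM in thermoneutral and 219 to 305 TPM in heat-stressed fat. Bulk RNA does not show which cells it came from. In this paragraph values in brackets are log2 fold changes, and none of these genes passed the FDR. No listed marker is at 0, because every gene in the table has at least 1 count in each library. Markers not matched by symbol (2 of 8 for heterophils, 4 of 8 for erythrocytes, 1 of 6 for thrombocytes, 2 of 5 for the osteoclast list and 1 of 8 for all leukocytes) are not analysed here.

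Beyond the 9 members, 152 further genes in 7 lists on phagocyte biology were tested. Of these, 0 passed the FDR in edgeR. DESeq2 called 18 of the 152 lower and 6 higher, beside 603 lower (4.09%) and 749 higher of all 14743 genes. At an unadjusted p under 0.05 there were 32 lower and 9 higher, or 21.1% and 5.92% of the lists, beside 9.2% and 9.56% of all genes. Their median log2 fold change was -0.17. The lists too were chosen with earlier results of these data known, so these counts are no independent evidence. Heat stress 1 stood above heat stress 2 and 3 in the mean of several of these lists. These were LY86 partners (0.21 against -0.36 and -0.34), growth factors (0.37 against -0.14 and -0.06) and dendritic cell genes (-0.05 against -0.32 and -0.42). Macrophage surface genes were also split (-0.06 against -0.33 and -0.43). Complement partners went the other way (-0.30 against -0.01 and -0.17). GPR34 relatives and transcription factors were not split.

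Growth factors that feed the members' receptors did not pass the test. IL34, a CSF1R ligand, averaged 71.9 ± 15.3 CPM in thermoneutral and 56.1 ± 2.94 CPM in heat-stressed fat (log2 fold change -0.36 ± 0.15, edgeR FDR = 0.261). CSF1, the other ligand of that receptor, averaged 53.8 ± 8.31 and 59.7 ± 13.4 CPM (0.15 ± 0.18, FDR = 0.713). Of 7 genes measured in this list, 2 (CSF2RA and IL34) were lower and 0 higher at an unadjusted p under 0.05. CSF2RA, a receptor chain for the growth factor of granulocytes and macrophages, stood at -0.36, and KITLG at 0.62. FLT3LG, the ligand of FLT3, was not matched by symbol and is not analysed here.

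Transcription factors of the myeloid lineage were spread to both sides. Of 26 measured, 6 were lower and 4 higher at an unadjusted p under 0.05 (median -0.11). ZBTB46, which marks classical dendritic cells and is also expressed by endothelium, averaged 120 ± 3.63 and 160 ± 10.7 CPM (log2 fold change 0.41 ± 0.08, edgeR FDR = 0.0697). RUNX3 and ZEB2 stood at -0.85 ± 0.19 and 0.55 ± 0.15. BATF3, the partner of IRF8 in cross-presenting dendritic cells, averaged 2.95 ± 0.897 and 2.52 ± 0.40 CPM (-0.22 ± 0.30, FDR = 0.741).

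Among 22 dendritic cell genes 5 were lower and 3 higher at an unadjusted p under 0.05 (median -0.25). XCR1, the chemokine receptor of cross-presenting dendritic cells, measured 3.34, 2.80 and 3.61 CPM in thermoneutral and 0.989, 1.33 and 1.07 CPM in heat-stressed fat. Like FLT3 it was low in all 3 heat-stressed libraries, heat stress 1 included (log2 fold change -1.52 ± 0.27, edgeR FDR = 0.061, DESeq2 adjusted p = 2.13e-05). BTLA, an inhibitory receptor also found on B and T cells, stood at -2.65 ± 0.56, and ANPEP, a peptidase found on many cell types, at 1.07 ± 0.19.

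Macrophage surface and phagocytosis genes numbered 49, of which 39 were negative (median -0.19), with 10 lower and 0 higher at an unadjusted p under 0.05. Their summed level did not separate the groups (5962 to 6394 TPM in thermoneutral and 6055 to 6502 TPM in heat-stressed fat). Abundant genes weigh most in that sum, such as CD36 (1060 to 1570 TPM in thermoneutral fat) and MFGE8 (1010 to 1310 TPM). The mean over genes of log2 CPM, relative to the thermoneutral mean, was -0.2, 0.2 and 0.0 in thermoneutral 1, 2 and 3. It was -0.06, -0.33 and -0.43 in heat stress 1, 2 and 3. The smallest p belonged to LCP2, an adaptor of leukocyte signalling (33.1 ± 0.99 and 20.9 ± 3.34 CPM, log2 fold change -0.66 ± 0.13, edgeR FDR = 0.0702). CD44, an adhesion receptor, and CX3CR1, the fractalkine receptor of tissue macrophages, stood at -0.62 ± 0.14 and -0.91 ± 0.22.

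Genes around GPR34 were mostly negative, 11 of 14 (median -0.32), with 4 lower and 1 higher at an unadjusted p under 0.05. MBOAT1, an acyltransferase that consumes lysophosphatidylserine, averaged 55.2 ± 1.5 and 36.6 ± 6.12 CPM (log2 fold change -0.59 ± 0.13, edgeR FDR = 0.0858). PLA1A, the phospholipase that releases this lipid, averaged 22.9 ± 7.40 and 38.5 ± 9.53 CPM (0.75 ± 0.28, FDR = 0.22). The orphan receptor GPR171 and the receptor P2RY8 stood at -1.04 ± 0.28 and -0.43 ± 0.13, while the purinergic receptors P2RY12 and P2RY13 stood at -0.03 ± 0.27 and -0.40 ± 0.35.

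Partners of LY86 in the sensing of bacterial lipopolysaccharide gave 0 genes of 12 at an unadjusted p under 0.05 in either direction (edgeR), and DESeq2 called 0. CD180, to which LY86 binds, averaged 4.74 ± 1.29 and 3.41 ± 3.07 CPM, with 6.92 CPM in heat stress 1 and 1.20 and 2.12 CPM in heat stress 2 and 3 (log2 fold change -0.47 ± 0.62, edgeR FDR = 0.731, and -1.51 without heat stress 1, FDR = 0.128). The heat-stressed libraries again enclosed the thermoneutral range, as for SPI1. TICAM1, TLR4 and IRAK4, which carry the signal of Toll-like receptors, stood at 0.28, -0.24 and -0.15.

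Of 23 complement partners of C1q, 5 were lower and 1 higher at an unadjusted p under 0.05 (median -0.19). Properdin (CFP), which stabilises the alternative pathway, measured 123, 95.7 and 113 CPM in thermoneutral and 80.4, 57.2 and 52.3 CPM in heat-stressed fat (log2 fold change -0.80 ± 0.18, edgeR FDR = 0.086). C1R, a protease carried by C1q, stood at -0.70 ± 0.19 with groups that did not overlap, and C1S, the protease it activates, at -0.24 ± 0.34. SERPING1, the inhibitor of C1R and C1S, stood at -0.26 ± 0.19.

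The genes whose profile over the 6 libraries came closest to a member were found by the root mean square difference of centred log2 CPM, among 11633 genes. Closest to GPR34 were TRAT1 (0.0538), an adaptor of T cells, TVP23A (0.0574) and ARHGAP15 (0.0626), and its nearest member was FLT3 (0.203). Members are few beside the 11633 genes searched, so closer non-members cannot show which cell type a member follows. Closest to CSF1R were CRYZ (0.0256), RBPJ (0.0561) and SELENOP1 (0.0569), and its nearest member was IRF8 (0.141). Closest to LY86 were ARRDC3 (0.0984), IL12RB1 (0.0984) and OSBPL3 (0.152). Closest to C1QA were CD244 (0.0932), BLB1 (0.114), an MHC class II beta chain, and ALOX5AP (0.131), with C1QC (0.137) and C1QB (0.168) the nearest members. BLB1 belongs to a family of near-identical copies, so its value is uncertain.

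**Figure D5:**
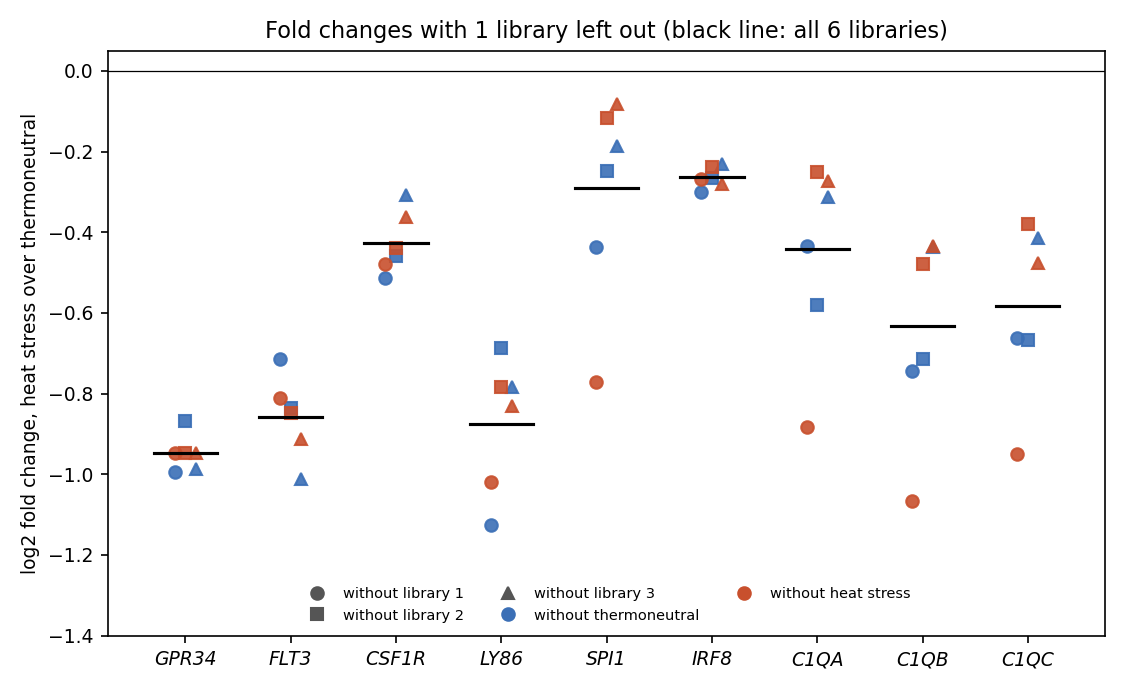
Log2 fold change of each gene with 1 library left out (points, colour and shape naming the omitted library) beside the value with all 6 (black line). GPR34 moves between -0.99 and -0.87, whereas SPI1 and the C1q chains are lowest without heat stress 1.

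The authors' deposited table gave GPR34 a fold change of -1.93 (adjusted p = 9.91e-12), LY86 -1.83 (0.0172), FLT3 -1.81 (0.0158), CSF1R -1.34 (0.0341) and IRF8 -1.20 (0.0312). In the authors' deposited table C1QC, C1QB, C1QA and SPI1 had adjusted p-values of 0.212 to 0.695. None of the 9 members reached, in the authors' deposited table, a 2-fold change with a raw p under 0.05.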

How the data were processed

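The submitters' processing notes name StringTie 2.1.3b, HISAT2 2.1.0, Bowtie2 2.3.4.1 and the build GRCg6a. Their roles and the use of strand in counting were not stated. Libraries were made with a stranded mRNA kit, per the labels' protocols. The deposited count columns hold raw reads per gene, and the deposited TPM columns hold the authors' length-scaled values, per the file headers. The authors' own comparison is deposited as signed fold changes, negative where heat stress is lower, with p-values. A further 42 columns of values per library, counted over all libraries and tables, were not used.

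Counts were tested with edgeR 4.0.16 (R 4.3.3): TMM scaling, filterByExpr, a quasi-likelihood F test on group alone, and Benjamini-Hochberg adjustment over 14743 genes. The SE is the absolute log2 fold change over the square root of F. CPM used TMM-scaled totals, and 1 CPM was 29.98 counts in the smallest library. Alternatives were DESeq2 1.42.0, other scalings and filters, limma 3.58.1 on log2 TPM, a replicate block, and leaving out each library. The tests were checked on simulated data drawn from edgeR's own estimates of spread, where DESeq2 made more false calls than its threshold allows. Gene names come from the table; 14044 of its IDs, with all 9 members, matched the reference gene table, whose build differs, so no coordinates are given.

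Members and lists were chosen with earlier results of these data known. The rule named every member, the 3 genes of smallest p in each other list, partners fixed by name, and the 3 genes closest in profile to GPR34, LY86, CSF1R and C1QA. Genes beside a member in the reference table were added after values were seen. Of the listed symbols, 7 are in more than 1 list. A gene that this rule names is not reported here.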

Additional observations from a re-analysis of the deposited data

How the results depend on the processing

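Under 15 alternatives all 9 members kept a negative log2 fold change. GPR34 was past the FDR with all 6 libraries under every test, scaling, filter and unit tried (adjusted p of 9.06e-12 to 0.0488), and lost it whichever library was omitted. The number of members past the threshold was 1 in all but DESeq2, where it was 5, and the fits that omit a library, where it was 0. Over all genes the count was 26 (17 higher, 9 lower) and went to 1352 in DESeq2 (749 higher, 603 lower), 99 with library totals (80 higher, 19 lower), 133 with 1 CPM in all 6 libraries (92 higher, 41 lower), 202 with limma on log2(TPM + 1) (184 higher, 18 lower), 222 on log2(TPM + 0.1) (202 higher, 20 lower), 143 on log2(TPM + 1) without a filter (130 higher, 13 lower), and 3 to 35 with 1 library left out. The causes were not tested. The members' median log2 fold change ran from -0.88 without heat stress 1 to -0.42 without thermoneutral 3, and TPM moved the median of all genes to between 0.07 and 0.09.

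The labels do not state that the numbers in the sample titles, used here to name libraries, pair the samples. Deviations from the group mean correlated, across genes, at 0.0784, 0.252 and 0.0356 between libraries of the same title number. Between libraries of different title numbers the correlations ran from -0.188 to 0.109, and thermoneutral 1 correlated best with heat stress 3 (0.109). The library names carry other numbers. By name, thermoneutral 1 and heat stress 2 share the number 7, and they correlated at -0.188. These values do not settle whether the numbers mark pairs. With the replicate block 95 genes passed (74 higher, 21 lower), 1 member among them (GPR34, FDR = 0.0488), and the members' median was -0.64. The 3 libraries per group limit the precision, and counting error is below the spread between libraries for every member except GPR34 and FLT3 in heat stress.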
